A study of Mus musculus with 18 samples.

Results

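The 7 genes described here are mediators and acute-phase genes that macrophages regulate in response to lipopolysaccharide (LPS), a component of the outer membrane of Gram-negative bacteria: Il1f9, Il1rn, Ptgs2, Il7r, Lcn2, Saa2 and Dusp4. They are 7 of the 816 distinct gene symbols in the authors' deposited lists, and were found by matching the symbol column of all 6 lists. They were named because they were listed, so their fold changes and p-values are a description and not a test of the group. They accounted for 10 of the 1023 deposited rows, out of 21 possible combinations of gene and condition.

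The lists come from RNA-seq of mouse bone marrow-derived macrophages, primary cells that were grown from femur and tibia marrow with L929 cell-conditioned medium. EED KO cells came from Eed fl/fl; LysM-Cre+/- mice and WT cells from littermate controls, whose exact alleles and ages the labels do not give. LysM-Cre is a recombinase driven from the Lyz2 locus in myeloid cells, and EED belongs to the core of Polycomb repressive complex 2 (PRC2), the enzyme complex that methylates histone H3 at lysine 27. Each genotype was unstimulated, LPS primed (Salmonella LPS at 100 ng/ml for 24 h) or LPS tolerant (the same priming, 48 h of rest in fresh medium, then 10 ng/ml LPS for a time not given in the sources used here). There were 3 libraries in each of the 6 groups, 18 in all. The labels assign all but 1 of them, replicate 1 of the WT LPS primed group, to a comparison.

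All values below are fold changes of EED KO against WT within 1 condition, so they do not show how LPS itself changed a gene. Levels per library were not analysed here, the depth is unknown, and no library could be set against another. The log base was taken as 2, and the direction was set by Eed, which the authors' deposited table lists at -3.04 without stimulation, -3.59 after priming and -3.87 in tolerance. The error given with a value is an approximate SE implied by the deposited p-value. "Rose" and "fell" are kept for rows with an adjusted p under 0.05. A gene that is not listed had a fold change or a p-value outside the authors' selection or was not tested, and these cannot be told apart. In this bulk RNA, fewer cells of a type and less RNA per cell cannot be told apart either.

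LPS is sensed by Toll-like receptor 4, which switches on NF-kappaB and the MAP kinases and through them a large set of cytokines, enzymes and secreted defence proteins. The IL-1 family includes activating ligands such as interleukin-36 gamma, encoded by Il1f9, and blockers such as the IL-1 receptor antagonist, encoded by Il1rn. Acute-phase proteins such as lipocalin 2 and serum amyloid A are made in quantity during infection, and dual-specificity phosphatases such as DUSP4 switch MAP kinases off again. In tolerance, a second dose of LPS induces many inflammatory genes less strongly, while others stay inducible.

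Promoter sequence is shown for 4 of the genes: Il7r and Il1f9, which hold every row past the adjusted threshold, Saa2, whose direction differed between conditions, and Ptgs2, the one with the most CpG pairs. Saa1 is added because it is the close copy of Saa2 and was listed beside it. The sequences are the 250 bases before the RefSeq transcription start, in GRCm38.p6, an older build than the GRCm39 named in the submitters' processing notes. They lie at chr15:9529877-9530126 on the minus strand for Il7r, at chr2:24186226-24186475 on the plus strand for Il1f9, at chr7:46751583-46751832 on the plus strand for Saa2, at chr7:46742981-46743230 on the minus strand for Saa1 and at chr1:150099781-150100030 on the plus strand for Ptgs2. Each is written 5′ to 3′ in the direction of transcription, and capitals mark matches to the motifs that are spelled out after the sequences.
Il7r: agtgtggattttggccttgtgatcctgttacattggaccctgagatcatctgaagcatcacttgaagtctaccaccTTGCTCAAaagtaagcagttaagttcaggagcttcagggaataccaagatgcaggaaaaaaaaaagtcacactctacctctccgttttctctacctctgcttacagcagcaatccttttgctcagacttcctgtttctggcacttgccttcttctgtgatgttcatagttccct
Il1f9: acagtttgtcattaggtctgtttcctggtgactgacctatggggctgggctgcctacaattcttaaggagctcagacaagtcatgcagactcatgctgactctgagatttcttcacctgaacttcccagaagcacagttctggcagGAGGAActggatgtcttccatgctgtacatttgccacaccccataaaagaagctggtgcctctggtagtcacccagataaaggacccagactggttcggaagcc
Saa2: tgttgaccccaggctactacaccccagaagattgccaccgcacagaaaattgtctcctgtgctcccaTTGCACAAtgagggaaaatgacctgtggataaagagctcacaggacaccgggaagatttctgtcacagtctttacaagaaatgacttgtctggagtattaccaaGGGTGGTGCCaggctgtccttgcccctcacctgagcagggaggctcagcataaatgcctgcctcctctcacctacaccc
Saa1: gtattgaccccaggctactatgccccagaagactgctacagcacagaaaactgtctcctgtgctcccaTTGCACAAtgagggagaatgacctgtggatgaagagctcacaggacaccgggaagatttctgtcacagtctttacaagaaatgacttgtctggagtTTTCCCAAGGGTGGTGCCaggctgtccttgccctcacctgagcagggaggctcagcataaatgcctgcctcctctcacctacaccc
Ptgs2: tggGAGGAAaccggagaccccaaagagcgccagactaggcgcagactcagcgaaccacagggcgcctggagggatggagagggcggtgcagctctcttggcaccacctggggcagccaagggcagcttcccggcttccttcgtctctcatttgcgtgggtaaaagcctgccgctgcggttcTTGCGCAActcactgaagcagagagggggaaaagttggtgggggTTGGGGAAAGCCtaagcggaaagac

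The promoter windows were searched on both strands for these motifs: GGGNNNNNCC for NF-kappaB, TGANTCA for AP-1, TGACG for a cyclic AMP response half-site, GAGGAA for the PU.1 core, TATAAA for a TATA box and TTGNGNAA for C/EBP factors. Of the 32851 RefSeq windows of the same length, these were found in 45.8%, 6.75%, 17.8%, 23.3%, 12.4% and 11.7%, in the same order. Il7r held 1 match, TTGCTCAA at bases -174 to -167 counted from the transcription start, and Il1f9 held 1, the GAGGAA at -104 to -99. Saa2 held TTGCACAA at -183 to -176 and GGGTGGTGCC at -79 to -70. Saa1 held the same matches shifted by 1 base, plus TTTCCCAA at -86 to -79, which adjoins the NF-kappaB-type match. Ptgs2 held GAGGAA at -247 to -242, TTGCGCAA at -69 to -62 and an overlapping pair, TTGGGGAA at -25 to -18 with GGGGAAAGCC at -23 to -14. Of the genes whose sequence is not shown, Lcn2 held 1 match each for NF-kappaB, the PU.1 core and C/EBP. Numbered by position, Il1rn start 1 held 1 each for NF-kappaB and AP-1. Il1rn start 2 held 1 for C/EBP, and start 3 held 1 each for NF-kappaB and C/EBP. The windows of starts 2 and 3 overlap, so their C/EBP match may be the same. A match is a string of letters and no evidence of binding.

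PRC2 is known to gather at promoters rich in CpG pairs, so these were counted in the same windows. Of the 7 genes, 6 had RefSeq windows, 8 in all, and the other, Dusp4, had none. Il1f9 and Il7r each held 1 CpG pair in 250 bases, Saa2 held 2 and Lcn2 held 3, against a median of 6 over all 32851 windows. The 3 Il1rn starts held 1, 4 and 4. Ptgs2 held 13, more than 68.5% of all windows, and was the only one of the 6 genes above the median. For comparison, the median was 12 in the windows of genes listed as higher in LPS tolerant cells and 6 in those listed as lower there. In unstimulated cells these medians were 10 and 3, and in LPS primed cells 8 and 11. Whether PRC2 occupied any of these promoters was not tested.

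**Figure D1:**
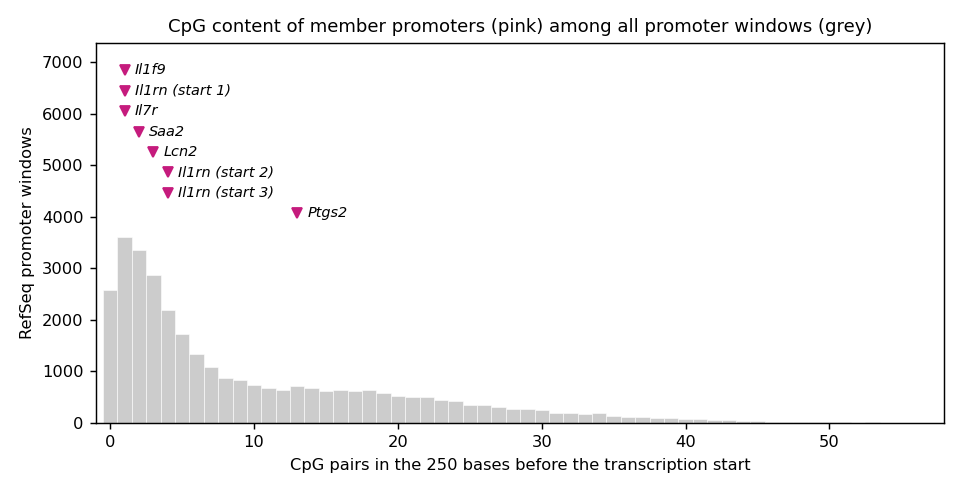
CpG pairs in the 250 bases before the transcription start (horizontal axis) for all 32851 RefSeq promoter windows (grey bars, number of windows) and for the 8 windows of 6 of the 7 genes (pink marks, placed above the bars for legibility, so that their height has no meaning). Ptgs2 stands at 13, and the other marks lie between 1 and 4.

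Il1f9 rose in LPS tolerant cells lacking EED. The authors' deposited table lists it at a log2 fold change of 1.78 (approximate SE 0.29), which is 3.44-fold higher, with an unadjusted p of 1.22e-09 and an adjusted p of 2.03e-06. It stood 25th of the 419 rows of that condition by p-value and 40th of the 344 higher rows by size. The median of those higher rows was 0.92, computed from the authors' deposited table. Both ranks cover listed rows only. Under the Benjamini-Hochberg procedure at least 338297 tests were made in LPS tolerant cells, and the rank of Il1f9 among them was not computed. Il1f9 was not listed in unstimulated or LPS primed cells, and whether its change differs between conditions was not tested. Its deposited row carries no Ensembl identifier, so it was matched by symbol alone.

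Il1rn, whose product occupies the IL-1 receptor without signalling, was listed in unstimulated cells only, in the opposite direction. The authors' deposited table lists it at -0.99 (approximate SE 0.31), 1.99-fold lower, with an unadjusted p of 0.00144 and an adjusted p of 0.63. It did not pass the adjusted threshold. Il1f9 and Il1rn lie in the same IL-1 gene cluster on chromosome 2, with Il1f6, Il1f5 and Il1f10 between them. None of those 3 was listed in any condition, nor was Il1f8 on the far side of Il1f9. Of 24 IL-1 family ligands, antagonists, receptors and processing factors, Il1f9 and Il1rn were the 2 listed in the 3 conditions together. Il1a, Il1b and Il18, ligands of the same family, were therefore in none of the 6 lists.

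Ptgs2 encodes the inducible cyclooxygenase, which makes the precursor of the prostaglandins. The authors' deposited table lists it at -1.13 (approximate SE 0.45) in unstimulated cells, 2.18-fold lower, with an unadjusted p of 0.0133 and an adjusted p of 1. It was not listed after LPS. Of 26 prostanoid genes, the other 2 listed were both higher. Ptgs1, the constitutive cyclooxygenase, rose in LPS primed cells by 2.12 (approximate SE 0.41, adjusted p = 0.000147) according to the authors' deposited table. Hpgd, the enzyme that inactivates prostaglandins, stood at 2.31 (approximate SE 0.78, adjusted p = 1) in unstimulated cells according to the authors' deposited table. The 2 cyclooxygenase genes were thus listed in opposite directions and in different conditions.

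Il7r was the one gene of the 7 that was listed in all 3 conditions, each time at a lower level in EED KO. It encodes the alpha chain of the interleukin-7 receptor, which also pairs with a second chain to bind thymic stromal lymphopoietin. In unstimulated cells the authors' deposited table lists it at -0.76 (approximate SE 0.28), 1.69-fold lower, with an unadjusted p of 0.00716 and an adjusted p of 1. In LPS primed cells it fell by 1.18 (approximate SE 0.31), to 2.26-fold lower, with an adjusted p of 0.0419 according to the authors' deposited table. In LPS tolerant cells it fell by 1.38 (approximate SE 0.32), to 2.60-fold lower, with an adjusted p of 0.0109 according to the authors' deposited table. It was the 8th largest of the 75 lower rows there, the 16th of 76 in LPS primed cells and the 52nd of 53 in unstimulated cells, where it lay just inside the authors' limit of about 0.75.

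The Il7r values lay in the order unstimulated, LPS primed and LPS tolerant, and the approximate 95% interval of each of the 3 differences held 0. The LPS tolerant value was more negative than the unstimulated one by -0.62 on the log2 scale (approximate 95% interval -1.47 to 0.22). The corresponding difference was -0.42 (interval -1.24 to 0.39) between LPS primed and unstimulated cells and -0.20 (interval -1.08 to 0.67) between LPS tolerant and LPS primed cells. With SEs from a t quantile with 4 degrees of freedom, the interval between LPS tolerant and unstimulated cells was -1.07 to -0.18 and no longer held 0, while the other 2 still did. The test behind the deposited p-values is not stated. A t quantile with 4 degrees of freedom would give Eed in LPS primed cells, with a deposited p of 7.71e-38, an implausibly small SE. The normal form was therefore kept as the main one, and nothing is concluded from the 4-degree interval. These intervals take the libraries of the conditions as independent, which the labels do not settle, since the same replicate numbers recur in each condition. The number of tests behind the deposited p-values also exceeds the number of annotated genes. The Il7r rows of the 3 conditions therefore need not describe the same segment of the gene.

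Listing in all 3 conditions was uncommon, and a lower value in all 3 more so. There were 39 such genes, of which 30 were higher throughout and 8 lower throughout. Lower rows were also the smaller part of each condition alone, at 23.3% (unstimulated), 20.2% (LPS primed) and 17.9% (LPS tolerant). The 8 genes lower throughout were Il7r, Eed, Lyz1, Lyz2, Dpp3, Pira2, Gm10693 and Gm14548. In 3 of them, Il7r, Eed and Gm10693, the values grew more negative from unstimulated to LPS primed to LPS tolerant cells. This order was not tested, and the rows need not describe the same segment of a gene in each condition. The nearest to Il7r in fold changes over the 3 conditions was Dpp3, a dipeptidyl peptidase, with a root mean square difference of 0.19 on the log2 scale. Dpp3 stood at -1.01, -1.39 and -1.38 without stimulation, after priming and in tolerance according to the authors' deposited table. The next were Gm14548 at 0.26 and Lyz2, the gene that carries the Cre insertion, at 0.35. For the 5 genes listed in 1 condition, likeness rests on 1 value. The 3 nearest by that value were Nqo1, Car2 and Nhs for Il1f9, Pik3c3, Slc6a12 and Atp2a3 for Il1rn, Mir7050, Tmem254a and Lilra6 for Ptgs2, Syt7, Ccnd3 and Ralgapa2 for Lcn2, and Gstm1, Snx7 and AV051173 for Dusp4.

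Other parts of the same receptor system were listed in LPS primed cells only. Of 18 genes of IL-7 receptor and common gamma chain signalling, Il4ra and Il21r, the receptor chains for interleukin-4 and interleukin-21, stood at 0.88 (adjusted p = 0.502) and 1.05 (adjusted p = 0.623) there according to the authors' deposited table. Neither passed, and Il2rg, the common gamma chain, Crlf2, the partner for thymic stromal lymphopoietin, and the ligands Il7 and Tslp were in no list. Il7r is also a lymphocyte gene. None of 13 T cell and innate lymphoid markers, Cd3e and Thy1 included, was listed in any condition. Of 8 B cell markers, Ighm was listed, at 1.63 (adjusted p = 0.132) in unstimulated cells according to the authors' deposited table, and did not pass. The part of lymphocytes in the Il7r values was not tested.

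**Figure D2:**
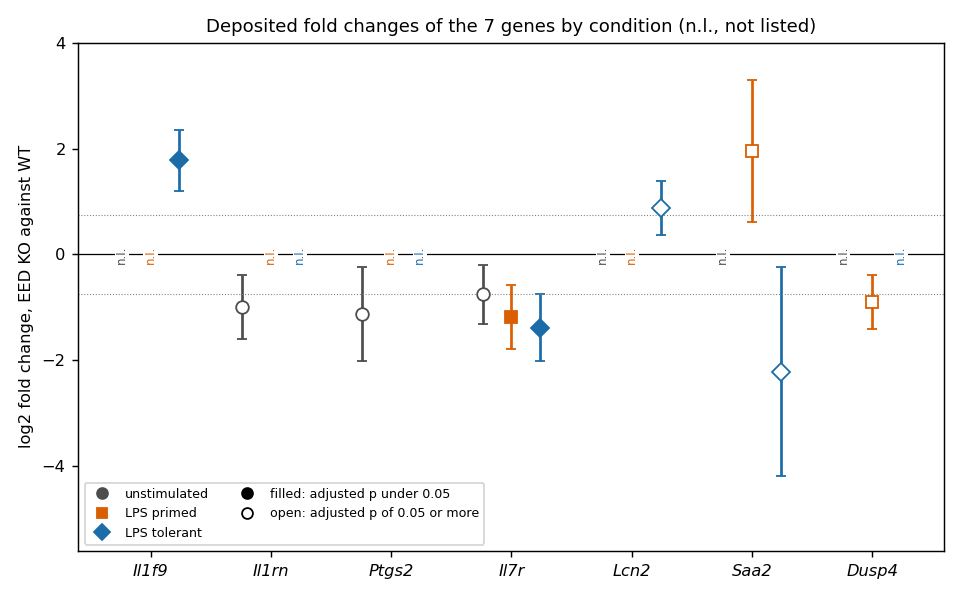
Log2 fold change of EED KO against WT (vertical axis) for the 7 genes (horizontal axis) in unstimulated (grey circles), LPS primed (orange squares) and LPS tolerant cells (blue diamonds), as deposited, with approximate 95% intervals implied by the p-values. Filled symbols have an adjusted p under 0.05, n.l. marks a gene that was not listed, and dotted lines mark 0.75 either way. Il7r lies below 0 in all 3 conditions, and Saa2 lies at 1.95 in LPS primed and at -2.21 in LPS tolerant cells.

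Saa2 was listed in opposite directions in LPS primed and LPS tolerant cells, without passing the adjusted threshold in either. Serum amyloid A2 is an acute-phase apolipoprotein carried on high-density lipoprotein. After priming the authors' deposited table lists it at 1.95 (approximate SE 0.69), 3.86-fold higher, with an unadjusted p of 0.00448 and an adjusted p of 0.396. In tolerance the authors' deposited table lists it at -2.21 (approximate SE 1.01), 4.64-fold lower, with an unadjusted p of 0.0281 and an adjusted p of 1. These SEs are the largest of the 10 rows of the 7 genes. The values differ by -4.16 (approximate 95% interval -6.55 to -1.77), which is a description of a gene chosen from these rows.

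The number of tests behind the deposited p-values exceeds the number of annotated genes, so the Saa2 rows of the 2 conditions need not describe the same segment of the gene.

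A change of direction between LPS primed and LPS tolerant cells was rare among listed genes. Leaving aside 2 symbols listed both ways within 1 condition, 111 genes were listed in both, and 7 of them, or 6.31%, had opposite directions. The 7 were Saa2, Gclm, Gm10499, Gm2427, Mndal, Mtus1 and Tle2. The share was similarly low for the other pairs of conditions. It was 5.56% of 72 genes for unstimulated and LPS primed cells and 3.45% of 58 genes for unstimulated and LPS tolerant cells. Likeness was compared among genes listed in these 2 conditions and not in unstimulated cells. The nearest to Saa2 among them was Mtus1, with 1.45 in LPS primed and -1.20 in LPS tolerant cells according to the authors' deposited table. Mndal, an interferon-inducible gene, followed with 2.14 and -0.84 according to the authors' deposited table. Gm2427, also listed in unstimulated cells and so left out, lay nearer than either, with 1.27 and -1.55 according to the authors' deposited table. Tle2 went the other way, from -0.94 to 5.38 according to the authors' deposited table.

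Saa1, the neighbouring copy of Saa2, was listed in LPS primed cells and, like Saa2, was higher. The authors' deposited table lists it at 1.49 (approximate SE 0.51, adjusted p = 0.344). It was not listed in LPS tolerant cells. Saa1 and Saa2 are transcribed away from each other on chromosome 7. Their annotated transcripts of 609 and 606 bases were identical at 93.9% of aligned positions, and the upstream windows printed above at 94.8%. None of the 457 stretches of 150 bases, the read length, in the Saa2 transcript occurred unchanged in that of Saa1. Reads that cover few of the differing bases can still be assigned to either gene, so both Saa values are uncertain, and how the authors treated such reads is not given in the sources used here.

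Lcn2 encodes lipocalin 2, which withholds iron from bacteria by binding their siderophores. It was listed in LPS tolerant cells, where the authors' deposited table lists it at 0.87 (approximate SE 0.26), 1.83-fold higher, with an unadjusted p of 0.000775 and an adjusted p of 0.201. It stood 198th by size of the 344 higher rows, close to their median. Lcn2 is also abundant in neutrophils. Of 13 neutrophil markers, Mmp8 was listed in LPS tolerant cells, where it rose by 1.30 (adjusted p = 0.00117), and Mcemp1 in LPS primed cells, where it fell by 1.09 (adjusted p = 0.023) according to the authors' deposited table. The granule and calprotectin genes Elane, Mpo, Ltf, Camp, S100a8 and S100a9 were in none of the lists. The part of such cells in the Lcn2 value was not tested.

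The acute-phase list of 30 genes had no listed gene in unstimulated cells, 3 in LPS primed and 5 in LPS tolerant cells. Saa2 and Lcn2 belong to this list and were chosen because they were listed. Without them the counts were 0, 2 and 3 of 28 genes. The share of all protein-coding genes listed in at least 1 condition was 3.41%, and nothing is read from these counts. With Saa2 included, all 3 in LPS primed cells were higher, and 1 rose. Cp, which encodes ceruloplasmin, a copper-carrying ferroxidase, rose there by 1.50 (approximate SE 0.19, adjusted p = 8.34e-12) and stood at 0.92 (adjusted p = 0.696) in LPS tolerant cells according to the authors' deposited table. Of the 5 in LPS tolerant cells, 4 were higher, Saa2 was lower, and none passed. Hp, the haemoglobin-binding haptoglobin, stood at 0.88 (adjusted p = 1) and Ptx3, a secreted pattern recognition protein, at 1.37 (adjusted p = 0.665) according to the authors' deposited table. Saa3, Il6 and C3 were in no list.

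Dusp4, a nuclear phosphatase that inactivates MAP kinases and is itself induced by their activity, was listed in LPS primed cells. The authors' deposited table lists it at -0.90 (approximate SE 0.26), 1.86-fold lower, with an unadjusted p of 0.000517 and an adjusted p of 0.119. It stood 41st of the 76 lower rows by size and at their median of -0.90, computed from the authors' deposited table. Of 36 MAP kinases, phosphatases and related regulators, 2 others were listed, both higher. Dusp6, a phosphatase for ERK, stood at 0.84 (adjusted p = 0.399) in LPS tolerant cells according to the authors' deposited table. Map2k6, a kinase that activates p38, stood at 0.92 (adjusted p = 0.35) in LPS primed and 0.99 (adjusted p = 0.542) in LPS tolerant cells according to the authors' deposited table. Dusp1, the phosphatase best known in LPS-treated macrophages, was not listed.

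**Figure D3:**
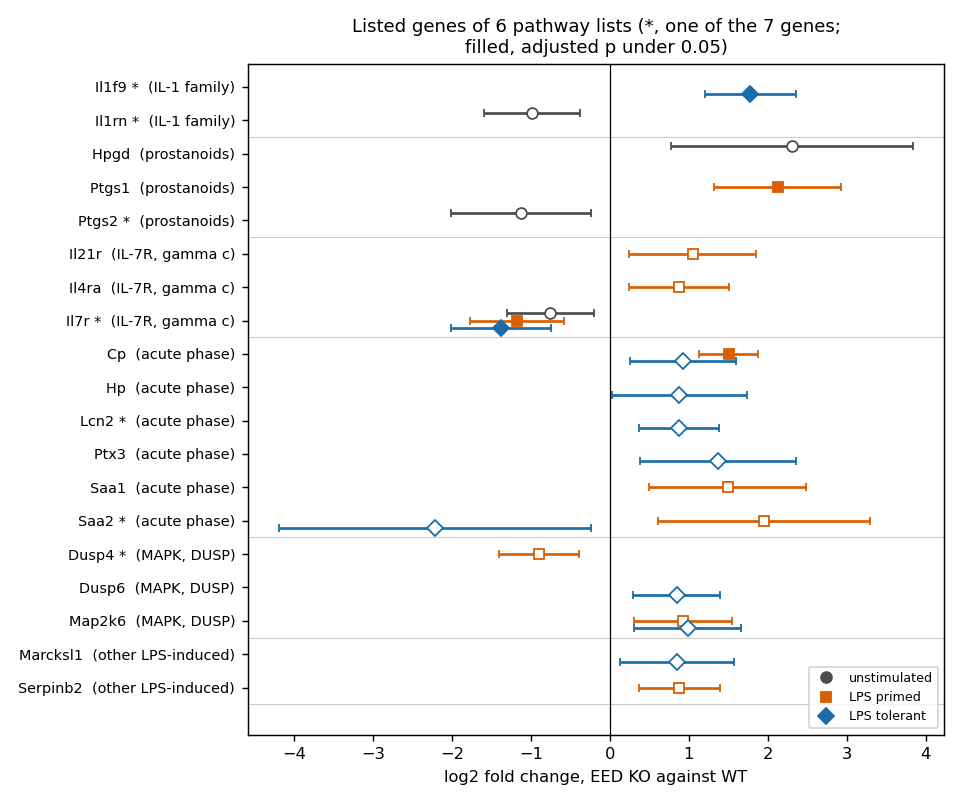
Log2 fold change of EED KO against WT (horizontal axis, with approximate 95% intervals) for every listed gene of 6 pathway lists, 1 gene per line, with the 7 genes starred. Colours and shapes give the condition as labelled, and filled symbols have an adjusted p under 0.05. Filled symbols lie to the right for Il1f9 in LPS tolerant cells and for Ptgs1 and Cp in LPS primed cells, and to the left for Il7r in both conditions.

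Read by condition, 3 of the 7 genes were listed in unstimulated cells, Il1rn, Ptgs2 and Il7r, all lower. Lower rows made up 23.3% of all 227 rows of that condition and higher rows 76.7%. None of the 3 passed the adjusted threshold in the authors' table, whose test is not stated (edgeR is among the tools in the submitters' processing notes), although all 3 had unadjusted p-values under 0.05, as every listed row did. Of all rows there, 19.4% passed. In LPS primed cells 3 were listed, Saa2 higher and Il7r and Dusp4 lower, and Il7r passed; 33.2% of the 377 rows passed, 20.2% were lower and 79.8% higher. In LPS tolerant cells 4 were listed, Il1f9 and Lcn2 higher and Il7r and Saa2 lower, and Il1f9 and Il7r passed; 23.6% of the 419 rows passed, 17.9% were lower and 82.1% higher. Since the 7 genes were picked from these lists, nothing is read from these counts.

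**Figure D4:**
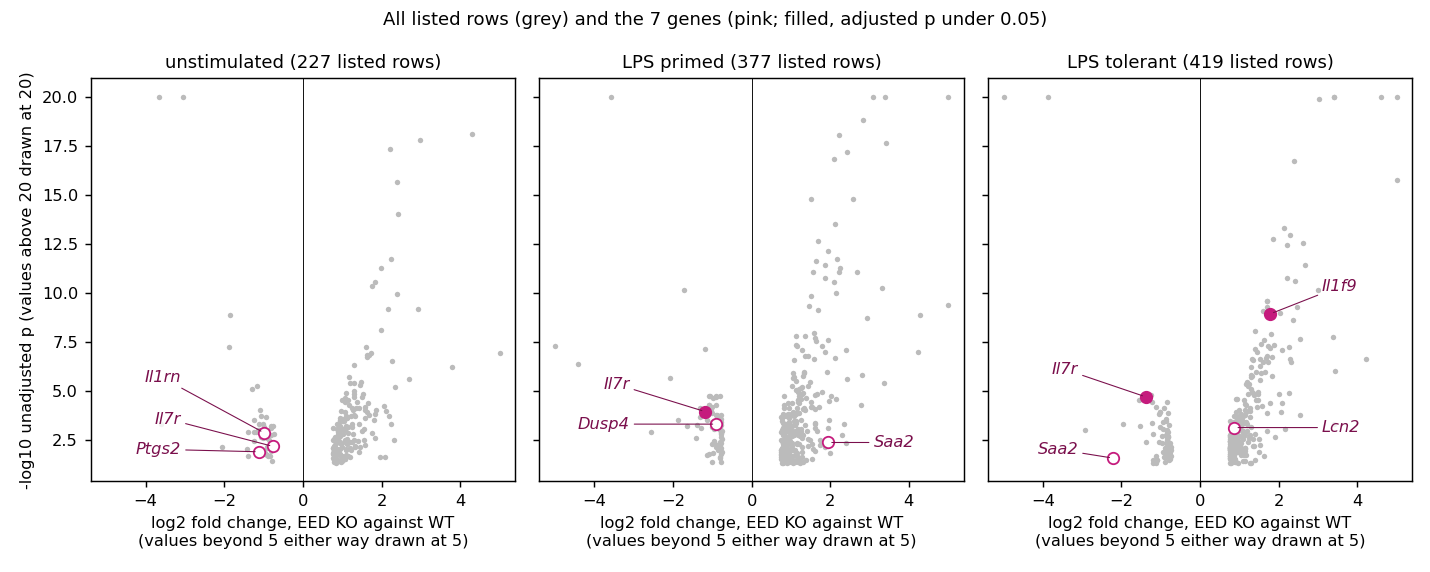
Unadjusted p on a -log10 scale (vertical axis) against log2 fold change of EED KO against WT (horizontal axis) for all listed rows in each condition (grey) and for the 7 genes (pink, filled where the adjusted p is under 0.05). Of the 7 genes, Il1f9 in LPS tolerant cells stands highest, 25th of 419 rows by p-value, and Saa2 lies farthest to the left in the same condition.

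None of 42 genes of Toll-like receptor 4 signalling and its inhibitors, Tlr4, Cd14, Irak3, Nfkbia and Tnfaip3 among them, was listed in any condition. Of all protein-coding genes, 3.41% were listed in at least 1. At so small a share, a list of 42 genes can hold no listed gene without differing from other genes. Genes that are not listed may also not have been tested, so nothing is read from this count. Of 44 other LPS-induced cytokines and mediators, Serpinb2, an intracellular protease inhibitor, stood at 0.88 (adjusted p = 0.146) in LPS primed cells and Marcksl1 at 0.85 (adjusted p = 0.978) in LPS tolerant cells according to the authors' deposited table. Tnf, Il6, Il10, Il12b and Nos2 were in none of the lists. The labelled cell type could not be checked from levels. Of 12 macrophage markers, Lyz2 fell in each condition, but it carries the Cre insertion, so its fall cannot be read as a sign of cell type. C1qa in unstimulated and LPS tolerant cells and Mertk in LPS primed cells were listed as higher without passing. Of 9 dendritic cell markers, Fscn1 rose by 2.58 in LPS primed and by 1.30 in LPS tolerant cells, and Cd24a stood at 0.93 (adjusted p = 0.573) in unstimulated cells, according to the authors' deposited table. Of 9 stromal markers, Dcn rose by 1.71 in LPS primed cells and stood at 1.35 (adjusted p = 0.668) in tolerance, where Igfbp7 stood at 1.12 (adjusted p = 0.12), according to the authors' deposited table. Their part in the values of the 7 genes was not tested.

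The position of each gene among its neighbours was compared with the lists as well. Over all protein-coding genes in RefSeq, 3.41% were listed in at least 1 condition. Among the 5 nearest genes on each side, Ptgs2 and Il7r had no listed neighbour, although Pla2g4a, whose product releases the substrate of cyclooxygenase, lies beside Ptgs2. The other 5 genes had 1 listed neighbour each of 10. These were Il1rn for Il1f9 and the reverse, Saa1 for Saa2, Fam102a for Lcn2 and Rbpms for Dusp4. Il1f9 and Il1rn were both chosen because they were listed, so their match was fixed beforehand and is 1 pair seen from both sides. The 3.41% is a share of single genes and cannot be set against counts per 10 neighbours. Whether listed genes lie close together was not tested.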

How the data were processed

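RNA-seq libraries of EED KO and WT macrophages in 3 conditions were used as the authors' deposited lists, 1 of higher and 1 of lower genes per condition. HISAT2, edgeR, R 4.0.3 and the build GRCm39 appear in the submitters' processing notes. Their roles, the annotation, the filters and the test are not stated there. The libraries were stranded and made from mRNA, per the labels' protocols. Per the file headers, each row has a log fold change and a p-value before and after adjustment, as deposited by the authors. The log2 base is an assumption, since the deposited log fold change has no stated base. Absolute values start at 0.75 and unadjusted p-values end at 0.0497, 0.0497 and 0.0498 (unstimulated, primed and tolerant cells).

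The ratio of adjusted to unadjusted p in the deposited rows reaches 413233, 189858 and 338297 in the same order. Under the Benjamini-Hochberg procedure the number of tests is at least that large. The GENCODE vM21 annotation holds 55450 genes and 446235 distinct exons, so a row may describe an exon or another segment of its gene, and not necessarily the same segment in each condition.

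No model was fitted. The approximate SE was obtained by dividing the size of the log2 fold change by the two-sided normal quantile of its deposited p-value. It is not an SE from replicates. The 7 genes, the pathway and marker lists and the genes named as alike (smallest root mean square difference among genes listed in the same conditions) were chosen with earlier results of these data known. All 7 genes and every listed gene of the pathway lists were to be named. The motifs, the CpG counts and the neighbour window were chosen after seeing the data. Sequences are from RefSeq, matched by symbol. Replicate numbers may or may not stand for separate mice, so p-values measure the spread between these libraries. Alternative thresholds, a natural log and a t-quantile SE were tried. Python 3.11.15, pandas 2.3.3 and scipy 1.17.1 were used.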

Additional observations from a re-analysis of the deposited data

How the results depend on the processing

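No paired analysis was possible because the deposited lists hold 1 value per comparison and none per library; for the same reason no replicate could be left out in turn. Of the 7 genes, 0, 1 and 2 passed an adjusted p of 0.05 without stimulation, after priming and in tolerance, and the counts were the same at 0.1 and with an absolute log2 fold change of at least 1. At an adjusted p of 0.01 they were 0, 0 and 1, since Il7r passed in neither condition. At an unadjusted p of 0.01 they were 2, 3 and 3, and counting every listed row they were 3, 3 and 4. Over all 227, 377 and 419 listed rows, 44, 125 and 99 passed an adjusted p of 0.05 (19.4%, 33.2% and 23.6%). These counts became 53, 149 and 117 at an adjusted p of 0.1. With an absolute log2 fold change of at least 1 also required, they were 43, 114 and 93. They were 29, 86 and 76 at an adjusted p of 0.01, while 180, 293 and 331 rows passed an unadjusted p of 0.01. Read as natural logs, the fold changes would be larger, and 9 of the 10 linear folds moved by more than 1 approximate SE; Il1f9 would be 5.93-fold higher. With a t quantile of 4 degrees of freedom, the SE of the Saa2 difference of -4.16 was 0.74 in place of 1.22. For Il7r the SEs were 0.17 in place of 0.42 (LPS primed minus unstimulated), 0.16 in place of 0.43 (LPS tolerant minus unstimulated) and 0.099 in place of 0.45 (LPS tolerant minus LPS primed), and the interval of LPS tolerant minus unstimulated then left out 0. Since the 4-degree form gives implausibly small SEs to rows with very small p-values, nothing is concluded from that interval. Depth is unknown, so what it limits cannot be stated.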
